A study of Mus musculus with 1 sample.

Results

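This report concerns 8 genes of chloride-based GABA signalling in the newborn mouse cortex: the GABA-A receptor subunit genes Gabra2, Gabra3, Gabra4, Gabra5, Gabrb1 and Gabrb2, and the chloride transporter genes Slc12a2 and Slc12a5. They were chosen by name, not by a threshold on their values, and are 8 of the 51912 genes in the count table. The sample was cerebral cortex of wild-type (WT) C57BL/6 mice on postnatal day 0, profiled as 1 single-cell RNA-seq library of 11062 cells and 90346034 unique molecular identifiers (UMIs, counts of captured transcripts with PCR copies removed). All groups compared below are therefore cell classes within this WT library. The SERPINA3 knock-in mice and the triplicates that the design names were not analysed here. Nothing in the sources says how many animals the library holds.

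GABA-A receptors are chloride channels opened by GABA, built from several subunits that usually include alpha, beta and gamma types. Which way chloride moves when they open depends on the chloride inside the cell. Slc12a2 encodes NKCC1, which carries chloride in, and Slc12a5 encodes KCC2, which is largely restricted to neurons and carries chloride out. In the rodent cortex KCC2 is known to increase during postnatal maturation, and GABA is often depolarizing before that. The alpha subunit sets much of the receptor's affinity for GABA and its place on the cell, and alpha5 receptors in particular are known for a tonic, extrasynaptic role.

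Cells were placed in classes by UMIs of marker genes that include none of the 8 genes. A cell passed a gate with at least 3 UMIs from at least 2 genes of a list, and 8254 cells had at least 2000 UMIs and at most 10% mitochondrial UMIs. Of these, 738 passed the gates of 2 major classes and were left out, and 169 passed none. Some overlaps were kept: newborn neurons could also pass the excitatory and radial glia gates, and Cajal-Retzius cells the excitatory gate. The 53 non-neural cells could also pass the radial glia gate, and their median cell held 5 UMIs of that list. The groups were progenitors (250 radial glia or astrocytes and 64 dividing cells), 445 newborn neurons gated on Eomes, Neurog2 and related genes, 3082 layered excitatory neurons in 5 layer classes, and 294 inhibitory neurons, called interneurons below (113 of Lhx6 type, 83 of Adarb2 type, 22 of striatal type and 76 without a subtype, whose median cell held 9 UMIs of the striatal list). A further 2889 excitatory neurons could not be given a layer. Genes outside the gates followed these names. Gad2, which makes GABA, stood at 507 counts per 1000000 UMIs (CPM) in interneurons and 4.68 CPM in layered excitatory neurons. The vesicular glutamate transporter gene Slc17a7 stood at 31.0 and 4.01 CPM in layered excitatory neurons and interneurons, and Nes, an intermediate filament gene of neural stem cells, at 272 CPM in progenitors and 20.8 CPM in newborn neurons. Some classes were not sharply bounded: 99 of the 445 newborn neurons and 38 of the 219 layer IV neurons held exactly 3 UMIs of their list, and the median layer IV neuron held 25 UMIs of the layer II/III list against 7 of its own, as the median layer VIb neuron held 22 UMIs of the layer VI list against 13 of its own. The median newborn neuron held 20 UMIs of the layer II/III list and 14 of the excitatory list against 5 of the newborn list. It also held 12 UMIs of the striatal list, which was used only to divide inhibitory neurons, and 0 of the inhibitory list. Of the 22 striatal-type cells, 6 were at the gate minimum. Cajal-Retzius cells (31) and oligodendrocyte-lineage cells (239) were gated as well, and ranks of levels below leave out Cajal-Retzius cells and the cells without a layer or subtype. Median depth per cell ran from 4442 UMIs in Adarb2-type interneurons to 16150 UMIs in layer VIb neurons and 16414 UMIs in Cajal-Retzius cells.

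A level below is the summed UMIs of a gene over the cells of a class per 1000000 UMIs, mitochondrial genes left out. Intervals in brackets are exact 95% intervals (Poisson for levels, Clopper-Pearson binomial for shares and ratios) and cover counting error alone. With 1 library there was no replicate error and no test, so a difference is described as clear of counting error when the interval of the ratio leaves out 1. A smaller share of a class's RNA and fewer expressing cells in it cannot be told apart from a level alone.

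Slc12a5, the chloride extruder, had its highest level in interneurons of Lhx6 type, the class that contains the parvalbumin and somatostatin lineages. There it stood at 71.4 CPM (54.3 to 92.1), from 59 UMIs in 113 cells. Layer VIb neurons, the remnant of the subplate at the base of the cortex, came next at 37.8 CPM (28.1 to 49.9), and the ratio of these leading classes was 1.89 (1.27 to 2.81). Layer VI neurons stood at 16.7 CPM (13.5 to 20.5), Adarb2-type interneurons at 16.4 CPM (6.03 to 35.8) and layer V neurons at 11.7 CPM (9.44 to 14.4). Adarb2-type interneurons did not differ from either layer beyond counting error, but layer V stood at 0.700 times (0.519 to 0.944) layer VI. Layer IV neurons stood at 8.63 CPM and layer II/III neurons at 6.84 CPM (5.58 to 8.29). The step from layer VI to layer VIb was 2.26-fold (1.57 to 3.22), and layer VIb exceeded layer II/III 5.53-fold (3.87 to 7.83).

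Newborn neurons and progenitors had little Slc12a5. It stood at 3.63 CPM (1.99 to 6.10) in newborn neurons and 2.32 CPM (0.632 to 5.94) in radial glia or astrocytes. Dividing progenitors had 0 UMIs, with an exact interval up to 6.08 CPM. Non-neural cells, which should lack this neuronal gene, held 2 UMIs or 3.82 CPM (0.463 to 13.8), so the newborn and progenitor values were not distinguishable from background. Layers II/III, IV and V also lay inside this wide background interval, and only the intervals of Lhx6-type interneurons and layer VIb neurons lay wholly above it. Lhx6-type interneurons exceeded layered excitatory neurons 6.42-fold (4.79 to 8.47).

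The share of cells with at least 1 Slc12a5 UMI was also highest in Lhx6-type interneurons at equal depth. After each cell was thinned to 2000 UMIs, 15.9% (9.72 to 24.0) of Lhx6-type interneurons had one, against 0.699% (0.362 to 1.22) of layer II/III neurons, 0.449% (0.0545 to 1.61) of newborn neurons and 0 of 53 non-neural cells (up to 6.72%). Radial glia or astrocytes had 0.800%, so the low classes had no clear order. Unthinned, at median depths of 6411, 8559, 6931 and 7459 UMIs, these shares were 35.4%, 5.24%, 2.47% and 3.77%. Layer VIb neurons, at a median of 16150 UMIs, stood at 44.3% unthinned, above Lhx6-type interneurons, and at 6.33% (2.09 to 14.2) thinned, below them with overlapping intervals.

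Slc12a2, the chloride importer, was spread far more evenly over neural classes. Its level lay between 29.1 CPM in layer VI neurons and 67.9 CPM (58.3 to 78.5) in layer IV neurons in every progenitor, glial and excitatory class. Newborn neurons stood at 38.4 CPM (32.5 to 45.1), radial glia or astrocytes at 51.0 CPM (40.9 to 62.8) and layer II/III neurons at 52.7 CPM (49.1 to 56.5). Lhx6-type interneurons had the lowest level, 16.9 CPM (9.26 to 28.4), which was 0.357 times (0.195 to 0.601) that of layered excitatory neurons but did not differ from layer VI beyond counting error. The highest level lay outside the neural lineage: the 53 non-neural cells reached 229 CPM (190 to 274), and among them the 30 cells in the mural gate, which covers pericytes and vascular smooth muscle, held 103 of the 120 UMIs at 365 CPM (298 to 442). The non-neural gates overlap, and the 18 cells in the endothelial gate stood at 117 CPM (80.0 to 165). The fibroblast gate held 1 cell, with 12 of the 120 UMIs.

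**Figure D1:**
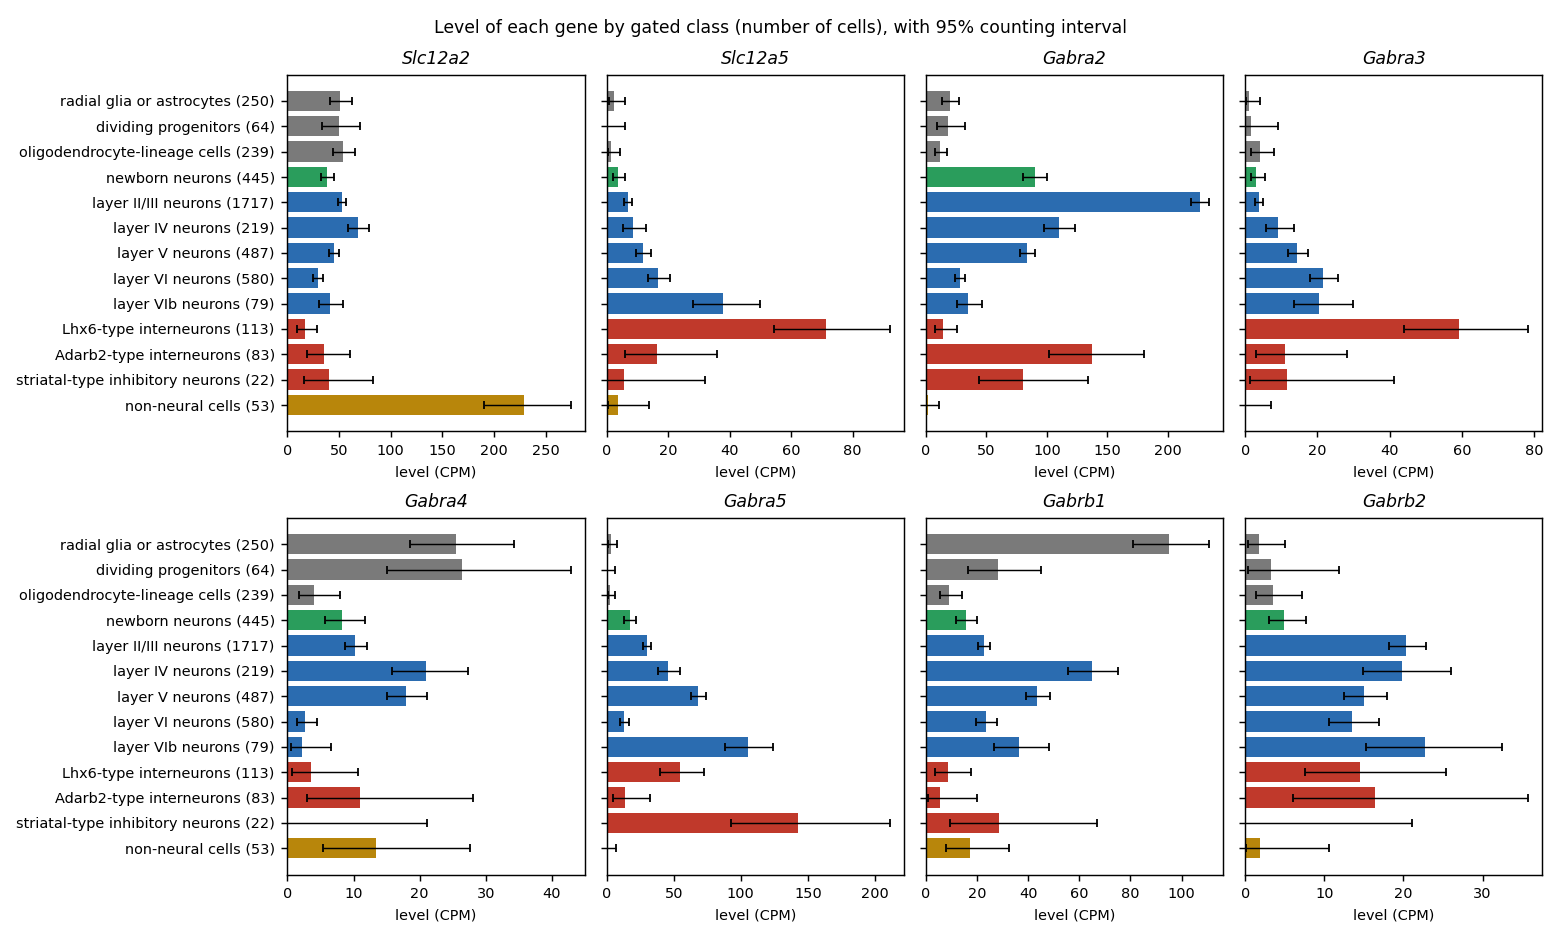
Level of each of the 8 genes in CPM (x axis, linear from 0, with its own scale in each panel) in 13 gated classes with their numbers of cells, progenitors and glia in grey, newborn neurons in green, excitatory layers in blue, inhibitory classes in red and non-neural cells in yellow. Error bars are exact 95% counting intervals. Slc12a5 and Gabra3 peak in Lhx6-type interneurons (71.4 and 59.3 CPM), Gabra2 in layer II/III neurons (226 CPM) and Gabrb1 in radial glia or astrocytes (95.1 CPM).

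The balance of the transporters was measured as the Slc12a2 share of the UMIs of both. Since each captured 3′ end counts once, this share is not scaled by transcript length, but it depends on how well each 3′ end is captured, so its differences across classes are read and not its absolute value. It was 96.7% (91.8 to 99.1; 118 against 4 UMIs) in progenitors, 91.4% (85.9 to 95.2; 148 against 14) in newborn neurons, 81.0% (79.2 to 82.8; 1541 against 361) in layered excitatory neurons and 36.0% (27.2 to 45.5; 41 against 73) in interneurons. The intervals of progenitors and newborn neurons overlapped, while those of the last 2 groups stood apart from each other and from both. Without the cells in the highest 5% of a doublet score, which took 11.2% of newborn neurons, their share was 95.8%.

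Within the excitatory neurons the share was lower in deeper layers. It was 88.5% (86.2 to 90.5) in layer II/III, 88.7% (83.6 to 92.7) in layer IV, 79.2% (75.2 to 82.9) in layer V, 63.5% (57.3 to 69.4) in layer VI and 51.9% (41.9 to 61.8; 54 against 50 UMIs) in layer VIb. Intervals of layers II/III and IV overlapped, as did those of layers VI and VIb. Layers IV to VIb held more cells of high doublet score (8.22% to 12.7% of each) than layer II/III (1.69%). Without those cells the shares in layers VI and VIb were 58.5% and 50.6%. With every cell at 2000 UMIs the layer II/III share was 93.6%.

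Interneurons were not uniform. The share was 19.2% (10.9 to 30.1; 14 against 59 UMIs) in Lhx6-type cells, where Slc12a5 gave more of the captured UMIs. It was 68.4% (43.4 to 87.4; 13 against 6 UMIs) in Adarb2-type cells, the class related to the caudal ganglionic eminence. These intervals do not overlap. By cell, 35 of the 113 Lhx6-type interneurons had Slc12a5 UMIs alone, 7 had Slc12a2 UMIs alone, 5 had both and 66 had neither. In layer II/III the same counts were 55, 504, 35 and 1123 of 1717 cells. In the striatal-type class 7 Slc12a2 UMIs stood against 1, too few to place it.

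**Figure D2:**
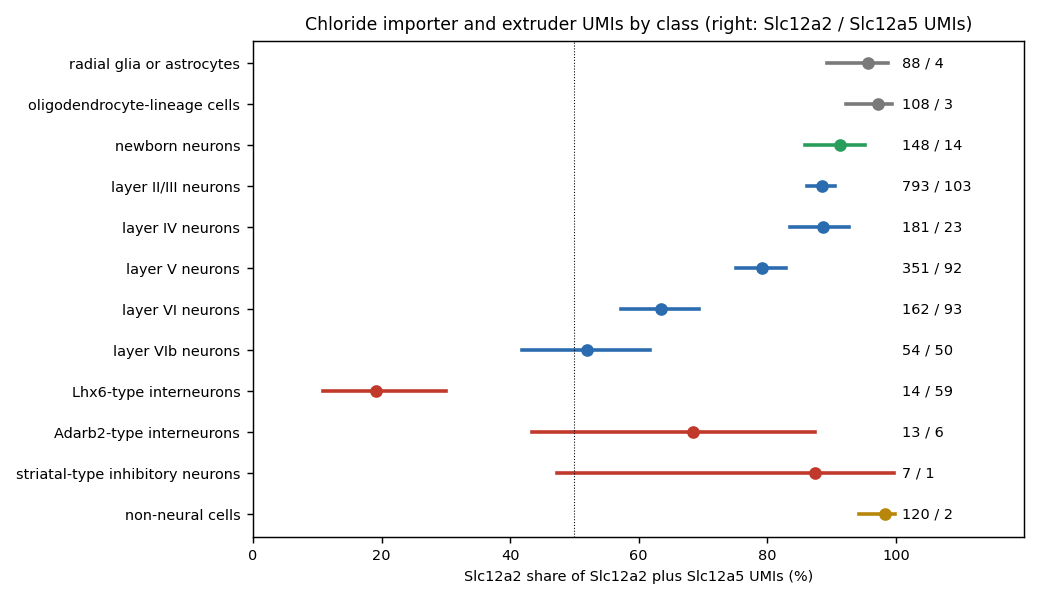
Slc12a2 share of Slc12a2 plus Slc12a5 UMIs in percent (x axis) in 12 gated classes (dividing progenitors, with 30 against 0 UMIs, are not drawn), with exact 95% binomial intervals as lines and the UMIs of each gene at the right. The share descends from 88.5% in layer II/III to 51.9% in layer VIb, and Lhx6-type interneurons are lowest at 19.2%. The dotted line at 50% marks equal captured UMIs, not equal transcripts.

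Slc12a5 and Gabra3 had the most similar profiles of any transporter and subunit pair over 12 classes of at least 50 cells (Pearson r of 0.845 for log2(CPM + 1), a description, since all classes share 1 library). Their upstream sequences are shown for that reason. RefSeq (GRCm38.p6) gives Slc12a5 on chromosome 2 an upstream and a downstream start, and Gabra3 on the minus strand of chromosome X 2 starts with overlapping windows, of which the upstream one is shown. Bases 250 to 51 before each start are printed 5′ to 3′ on the strand of the gene. Capitals mark GGGCGG, the GC box, on either strand.
Slc12a5, upstream start, chr2:164960596-164960795, plus strand: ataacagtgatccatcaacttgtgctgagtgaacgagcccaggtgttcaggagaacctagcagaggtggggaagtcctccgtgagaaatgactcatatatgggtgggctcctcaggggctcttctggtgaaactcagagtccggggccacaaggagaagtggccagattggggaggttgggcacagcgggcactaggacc
Slc12a5, downstream start, chr2:164967738-164967937, plus strand: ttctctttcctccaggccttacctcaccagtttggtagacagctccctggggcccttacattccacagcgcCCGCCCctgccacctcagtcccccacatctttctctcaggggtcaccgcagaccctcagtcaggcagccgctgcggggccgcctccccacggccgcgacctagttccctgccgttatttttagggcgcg
Gabra3, upstream start, chrX:72656970-72657169, minus strand: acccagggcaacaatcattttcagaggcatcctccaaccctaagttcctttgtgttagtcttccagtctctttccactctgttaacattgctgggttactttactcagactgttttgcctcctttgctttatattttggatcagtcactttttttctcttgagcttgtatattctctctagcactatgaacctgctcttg

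These windows differ in composition: G and C make up 56.0% and 64.0% of the Slc12a5 windows and 41.0% of the Gabra3 window. The downstream Slc12a5 window held 1 GC box, a motif in 24.6% of 32851 RefSeq windows of the same 200 bases. The other motifs searched on both strands were TAATTA, a core of homeodomain sites found in 4.19% of windows, and the E-boxes CAGATG (12%) and CAGCTG (10.3%), and none of them was in these 3 windows. A 3′ library does not show which Slc12a5 start was used. Windows on 1 chromosome were left out beforehand, here and in the 32851. Windows were available for 7 of the 8 genes and not for Slc12a2.

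Gabra2 was the most abundant of the 6 subunit genes and was highest in layer II/III neurons, at 226 CPM (219 to 234), from 3409 UMIs. The 31 Cajal-Retzius cells, early-born neurons of the cortical surface, stood at 159 CPM (128 to 195). Adarb2-type interneurons followed at 137 CPM (102 to 181), then layer IV neurons at 110 CPM (97.7 to 123), newborn neurons at 89.8 CPM (80.6 to 99.8) and layer V neurons at 83.9 CPM (77.6 to 90.5). Adarb2-type and layer IV cells did not differ beyond counting error, nor did newborn and layer V neurons. Layer VI neurons stood at 27.9 CPM (23.7 to 32.6), so that layer II/III exceeded them 8.12-fold (6.91 to 9.60). Lhx6-type interneurons stood at 14.5 CPM (7.50 to 25.4), 0.106 times (0.0514 to 0.202) the Adarb2-type level. Non-neural cells held 1 Gabra2 UMI at 1.91 CPM, the background of the most abundant gene. At 2000 UMIs per cell a Gabra2 UMI was found in 32.7% of layer II/III neurons, 3.79% of layer VI neurons and 0 of 53 non-neural cells, and unthinned in 66.2%, 12.1% and 1.89%.

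Gabra3 ran the other way over the layers. Lhx6-type interneurons were highest at 59.3 CPM (43.9 to 78.4), 2.75-fold (1.93 to 3.86) above the next class, layer VI neurons at 21.6 CPM (17.9 to 25.8). Layer VIb and layer V neurons stood at 20.4 and 14.4 CPM, and layer II/III and newborn neurons at 3.72 and 3.11 CPM. Layer VI exceeded layer II/III 5.80-fold (4.19 to 8.12). Non-neural cells held 0 Gabra3 UMIs, with an interval up to 7.05 CPM that also holds the layer II/III and newborn levels. The newborn level rests on 12 UMIs, and with cells of high doublet score left out its ratio to layered excitatory neurons went from 0.297 to 0.0669.

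Gabra5 was highest in the 22 striatal-type inhibitory neurons, at 143 CPM (92.6 to 211) from 25 UMIs in 6 of these cells, and in layer VIb neurons, at 105 CPM (88.4 to 124) from 139 UMIs. These did not differ beyond counting error. Layer V neurons at 68.3 CPM (62.7 to 74.4) and Lhx6-type interneurons at 54.5 CPM (39.7 to 72.9) came next. The gene separated the layers below layer IV sharply: layer VI neurons had 13 CPM (10.1 to 16.3), so layer VIb exceeded them 8.12-fold (6.07 to 11) and layer V exceeded them 5.28-fold (4.12 to 6.85). Newborn neurons stood at 17.1 CPM (13.2 to 21.8), and radial glia or astrocytes at 3.48 CPM from 6 UMIs.

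Gabra4 had its highest levels in progenitors. It stood at 25.5 CPM (18.5 to 34.2) in radial glia or astrocytes and 26.4 CPM (15.1 to 42.8) in dividing progenitors. Radial glia or astrocytes exceeded newborn neurons 3.07-fold (1.90 to 5.0), at 44 against 32 UMIs. Layer IV and layer V neurons stood at 21.0 and 17.9 CPM, with intervals (15.9 to 27.3 and 15.1 to 21.2) that overlapped those of the progenitor classes. Layer VI neurons had 2.70 CPM (1.51 to 4.45), 6.65-fold (3.90 to 12.2) below layer V. Non-neural cells had 13.4 CPM (5.38 to 27.6) from 7 UMIs, and no neural class, progenitors included, was clear of that interval on the upper side. The ratio of progenitors to non-neural cells was 1.92 (0.879 to 4.99). Non-neural cells that also passed the radial glia gate were kept in that reference, here and for Gabrb1.

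Gabrb1 shared that pattern in part. Radial glia or astrocytes had the highest level, 95.1 CPM (81.1 to 111), from 164 UMIs, 3.39-fold (2.05 to 5.96) above dividing progenitors and 5.53-fold (2.84 to 12.3) above non-neural cells. Among neurons, layer IV stood at 64.9 CPM (55.6 to 75.3) and layer V at 43.5 CPM (39.0 to 48.4). Lhx6-type interneurons had 8.47 CPM from 7 UMIs and Adarb2-type interneurons 5.48 CPM from 2 UMIs. These, and the 15.6 CPM of newborn neurons, were not above the 17.2 CPM (9 UMIs) of non-neural cells. Gabra2, Gabra4 and Gabrb1 all lie on chromosome 5 in RefSeq, and their pairwise r over the 12 classes ran from 0.0954 to 0.477.

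Gabrb2 ran over the excitatory layers from 13.5 CPM (10.6 to 16.9) in layer VI to 22.7 CPM (15.3 to 32.4) in layer VIb, and Lhx6-type and Adarb2-type interneurons lay inside that range at 14.5 and 16.4 CPM. Layer VIb exceeded layer VI 1.68-fold (1.06 to 2.60), and layers V and VI were at 0.737 times (0.591 to 0.914) and 0.662 times (0.507 to 0.854) the layer II/III level. Striatal-type cells had 0 Gabrb2 UMIs, with an exact interval up to 21.1 CPM, and inhibitory neurons without a subtype stood at 7.94 CPM from 3 UMIs. Newborn neurons stood lower, at 4.93 CPM (2.97 to 7.70), 4.13-fold (2.60 to 6.96) below layer II/III. Radial glia or astrocytes held 3 UMIs, a level of 1.74 CPM, close to the 1.91 CPM of non-neural cells.

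The makeup of the subunits was compared as shares of the summed UMIs of Gabra2, Gabra3, Gabra4 and Gabra5, and of Gabrb1 and Gabrb2, with the same limit on 3′ capture. Other alpha and beta genes were left out of these sums. Among the 4 alpha genes, Gabra2 made up 83.8% (82.6 to 84.9) in layer II/III neurons, 79.4% (67.3 to 88.5) in Adarb2-type interneurons and 75.9% (71.7 to 79.7) in newborn neurons. It made up 42.8% (37.7 to 48.1) in layer VI neurons, where Gabra3 held 33.1% (28.3 to 38.3), and 21.4% in layer VIb neurons, where Gabra5 held 64.7% (57.9 to 71.0). In Lhx6-type interneurons Gabra3 held 49 and Gabra5 45 of 109 UMIs, so that neither led beyond counting error. In radial glia or astrocytes Gabra4 held 51.2% (40.1 to 62.1) of 86 UMIs.

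Of the 2 beta genes, Gabrb1 held 98.2% (94.8 to 99.6) in radial glia or astrocytes and 75.9% (65.0 to 84.9) in newborn neurons. In the layers its share was lowest in layer II/III, at 52.7% (48.8 to 56.6). That interval overlapped those of layer VIb at 61.5% (49.8 to 72.3) and layer VI at 63.4% (56.4 to 70.0). The share was highest in layer IV, at 76.5% (70.5 to 81.9), with an interval that overlapped that of layer V at 74.3% (70.1 to 78.3). Lhx6-type interneurons had 7 Gabrb1 against 12 Gabrb2 UMIs, a Gabrb1 share of 36.8% (16.3 to 61.6).

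**Figure D3:**
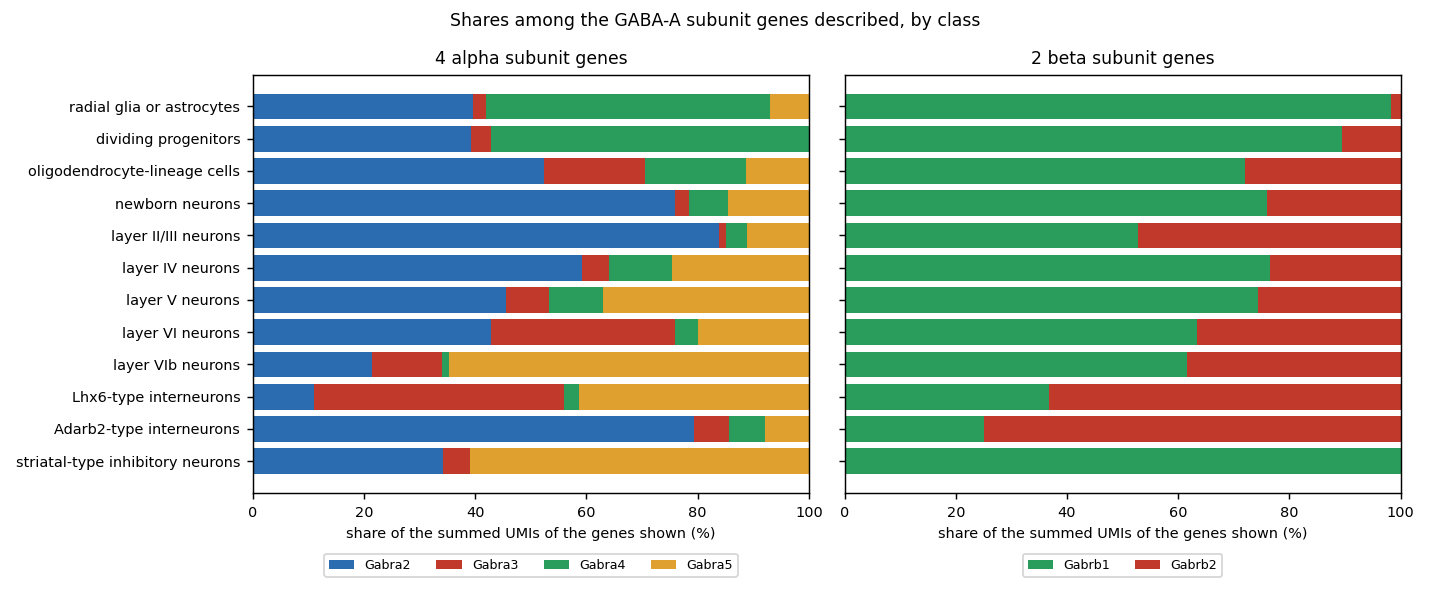
Share of each gene in the summed UMIs of 4 alpha (left) and 2 beta (right) GABA-A subunit genes, in percent (x axis, 0 to 100), in 12 gated classes. Gabra2 fills 83.8% of the alpha sum in layer II/III, Gabra5 fills 64.7% in layer VIb, and Gabrb1 fills 98.2% of the beta sum in radial glia or astrocytes.

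Newborn neurons were compared with layered excitatory neurons, a group that pools 5 layers of differing levels. Of the 8 genes, 0 were at least 2-fold higher and 5 at least 2-fold lower (Gabra3, Gabra5, Gabrb1, Gabrb2 and Slc12a5). Of 12055 genes with at least 100 UMIs over both groups, 5.78% were that much higher and 7.42% that much lower. The median ratio was 0.455 over the 8 genes and 1.03 over all. Ratios ran from 0.275 (0.164 to 0.433) for Gabrb2 to 0.809 (0.679 to 0.959) for Slc12a2, and 7 of 8 intervals lay below 1, the exception being Gabra4 at 0.729 (0.491 to 1.05). Leaving out all cells of high doublet score lowered several of these ratios by over 1.5 times, to 0.124 for Slc12a5 (from 0.327), 0.0669 for Gabra3, 0.156 for Gabra5, 0.162 for Gabrb2 and 0.269 for Gabrb1. With every cell at 2000 UMIs the ratio of Gabrb2 was 0.0633, from 1 newborn cell with a UMI. That of Gabra2 was 0.387, past 2-fold. With cells weighted equally the ratios of Slc12a5 and Gabra5 were 0.143 and 0.25. In the other direction, Gabra2 was 0.807 and Gabrb1 0.598 with gates of 2 UMIs, where Gabrb1 was no longer past 2-fold, and over all settings the number of genes past 2-fold ran from 4 to 6. Layer II/III neurons alone exceeded newborn neurons 4.13-fold (2.60 to 6.96) for Gabrb2 and 2.52-fold (2.26 to 2.82) for Gabra2. For Gabra5, Gabrb1 and Gabra3 they did so 1.74-fold (1.34 to 2.29), 1.46-fold (1.11 to 1.95) and 1.19-fold (0.633 to 2.45), short of 2-fold. Slc12a5 stood at 6.84 CPM in layer II/III and 3.63 CPM in newborn neurons. The part of the layer mix in the pooled ratios was not tested.

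Interneurons were compared with layered excitatory neurons in the same way. Slc12a5 was 3.76-fold (2.89 to 4.85) and Gabra3 3.34-fold (2.50 to 4.40) higher, and Gabra2, Gabra4, Gabrb1 and Slc12a2 were at least 2-fold lower. This is 2 of 8 higher and 4 of 8 lower, against 5.64% and 8.12% of 11925 genes, with a median of 0.583 against 1.02. The ratio of Slc12a2 was 0.495 (0.354 to 0.675), just past the fold. With every cell at 2000 UMIs the ratio of Gabra3 was 1.75, that of Gabra4 0.604 and that of Slc12a2 0.596. None of the 3 passed 2-fold, and they rest on 8, 3 and 15 interneurons with a UMI. As the class values above show, Lhx6-type cells held 59 of the 73 Slc12a5 UMIs and 49 of the 61 Gabra3 UMIs of interneurons. Striatal-type cells held 25 of the 83 Gabra5 UMIs. Adarb2-type cells did not differ from layered excitatory neurons beyond counting error in Gabra2 (0.975, 0.723 to 1.29), Gabra4 (0.962, 0.261 to 2.48) or Slc12a2 (0.751, 0.399 to 1.29). For these genes Lhx6-type cells stood at 0.103, 0.319 and 0.357 times the layered level. Gabrb1 was lower in both types.

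Progenitors were then set against newborn neurons. Gabrb1 was 4.98-fold (3.70 to 6.79) and Gabra4 3.10-fold (1.99 to 4.92) higher in progenitors. Radial glia or astrocytes held 164 of the 181 progenitor Gabrb1 UMIs. Dividing progenitors stood at 28 CPM (16.3 to 44.9) for Gabrb1, with an interval that overlapped that of newborn neurons at 15.6 CPM. Gabra4 was alike in radial glia or astrocytes and dividing progenitors, at 25.5 and 26.4 CPM. Gabra2 was 0.215 times (0.154 to 0.294) and Gabra5 0.150 times (0.0532 to 0.345) the newborn level. The newborn levels of Gabra4 and Gabrb1 were not above those of non-neural cells. Whether these non-neural levels are background was not tested. For Gabra4, layer VI neurons at 2.70 CPM (1.51 to 4.45) lay below the non-neural 13.4 CPM (5.38 to 27.6). Of the 9 non-neural Gabrb1 UMIs, 8 were in cells of the mural gate, which holds 30 of the 53 non-neural cells. In all, 2 of 8 were at least 2-fold higher and 5 of 8 lower. Of 8077 genes with at least 100 UMIs over both groups, 14.8% and 14.6% were. The median ratio was 0.453 over the 8 genes and 0.952 over all. Of the 8 genes only Gabra2, Gabrb1 and Slc12a2 met that minimum, with Gabrb1 past 2-fold higher and Gabra2 past 2-fold lower. The intervals of Gabra3, Gabrb2 and Slc12a5 included 1. Slc12a2 differed little, at 1.32-fold (1.03 to 1.69). At 2000 UMIs per cell the ratio of Gabra2 was 0.402. That of Gabra5 was 0.626, from 4 progenitors and 9 newborn neurons with a UMI. That of Gabrb2 was 1.41, from 1 cell of each group. Without cells of high doublet score the ratio of Gabrb1 was 8.88, and those of Gabra3 and Slc12a5 were 1.84 and 1.23, on the other side of 1.

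Upper-layer neurons (layers II/III and IV) against deep-layer neurons (layers V, VI and VIb) gave Gabra2 3.58-fold (3.32 to 3.86) higher, and Gabra3 and Slc12a5 0.256 times (0.197 to 0.330) and 0.446 times (0.356 to 0.556) the deep level. Thus 1 of 8 was at least 2-fold higher and 2 of 8 lower, against 3.35% and 6.23% of 11713 genes, and the median was 0.963 against 0.988. Slc12a2 was 1.43-fold (1.29 to 1.59) higher in upper layers. Deep-layer neurons were deeper, with a median of 10880 UMIs against 8680, and at equal depth the ratio of Slc12a5 was 0.223.

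**Figure D4:**
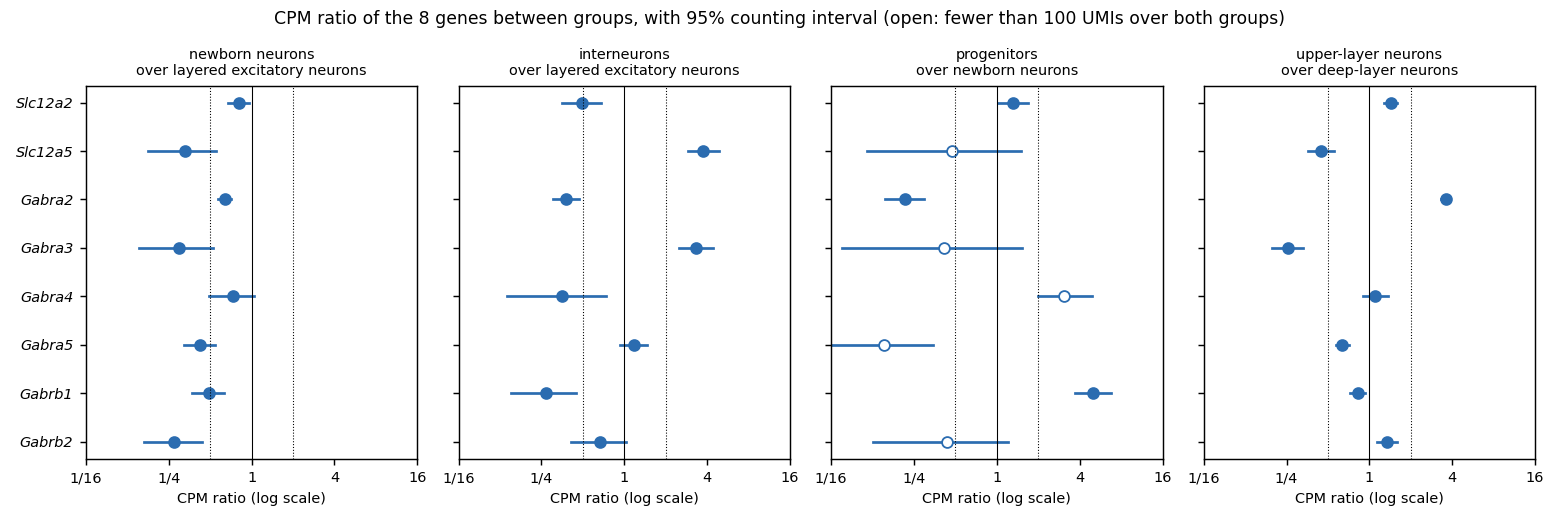
CPM ratio of each of the 8 genes (x axis, log scale) in 4 comparisons of groups, with exact 95% intervals as lines. The solid vertical line marks equal levels, dotted lines mark a 2-fold difference, and open points rest on fewer than 100 UMIs. Slc12a5 lies at 0.327 in newborn neurons and 3.76 in interneurons relative to layered excitatory neurons.

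Other genes of GABA and chloride handling were followed as 8 lists of 63 genes. In newborn against layered excitatory neurons, 4 of 45 listed genes with enough UMIs were at least 2-fold higher and 6 lower, with a median of 0.874 (5.78% and 7.42% of all genes, median 1.03). The largest were Gad2 at 6.49-fold (5.05 to 8.31), in the class whose striatal-list UMIs are given above, and Abat, which breaks GABA down, at 5.03-fold (3.69 to 6.80). Of the other GABA-A subunits 5 of 6 were at least 2-fold lower, with a median of 0.460. None of the 7 cotransporter kinases and regulators with enough UMIs passed the fold, and their median was 1.05.

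In interneurons 7 of 46 listed genes were at least 2-fold higher and 2 lower (5.64% and 8.12% of all genes), with a median of 1.04, and the largest folds were those of Gad1 (124-fold, 95.2 to 163), Gad2 (108-fold, 91.0 to 129) and the vesicular GABA transporter gene Slc32a1 (105-fold, 77.0 to 147). In progenitors against newborn neurons, 5 of 31 were higher and 11 lower (14.8% and 14.6% of all genes), with a median of 0.706. The glial GABA uptake gene Slc6a11 was 11.8-fold (8.80 to 16) higher. In upper against deep layers 0 of 44 were higher and 5 lower (3.35% and 6.23% of all genes), with a median of 0.954. Gabrd, the delta subunit of extrasynaptic receptors, was at 0.0775 times (0.0377 to 0.144), Abat at 0.232 times (0.144 to 0.362), and the sodium-dependent bicarbonate transporter gene Slc4a10 at 0.430 times (0.350 to 0.527) the deep-layer level.

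Layer II/III neurons are among the last-born neurons of the cortex, and they were split by Igfbpl1, a gene of immature neurons that stood at 2404 CPM in newborn neurons. The 1717 cells were ranked by their Igfbpl1 share and cut into 3 equal parts. Gabra2 was highest in the part with most Igfbpl1, at 343 CPM (324 to 363), against 231 CPM (218 to 244) in the middle and 154 CPM (145 to 165) in the part with least. The other 7 genes were higher where Igfbpl1 was lowest. From highest to lowest Igfbpl1, Gabra4 stood at 3.02, 6.34 and 17.9 CPM, a ratio of 5.91 (3.18 to 12.2) between the ends, and Gabra5 at 10.4, 25.8 and 44.6 CPM, a ratio of 4.27 (3.04 to 6.16). The ratio was 2.85 (2.06 to 4.02) for Gabrb1, 4.92 (1.95 to 15.9) for Gabra3 and 1.78 (1.26 to 2.57) for Gabrb2, whose level was highest in the middle part.

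The transporters moved together over these parts. Slc12a2 stood at 36.2, 45.4 and 68.4 CPM, a ratio of 1.89 (1.55 to 2.31), and Slc12a5 at 4.39, 5.19 and 9.65 CPM, a ratio of 2.20 (1.25 to 4.09). The Slc12a2 share was 89.2% (83.0 to 93.7), 89.7% (85.4 to 93.1) and 87.6% (84.4 to 90.4), within counting error of each other. Depth moved with Igfbpl1, at medians of 6621, 8779 and 11023 UMIs per cell from highest to lowest, and its part in these differences was not tested.

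**Figure D5:**
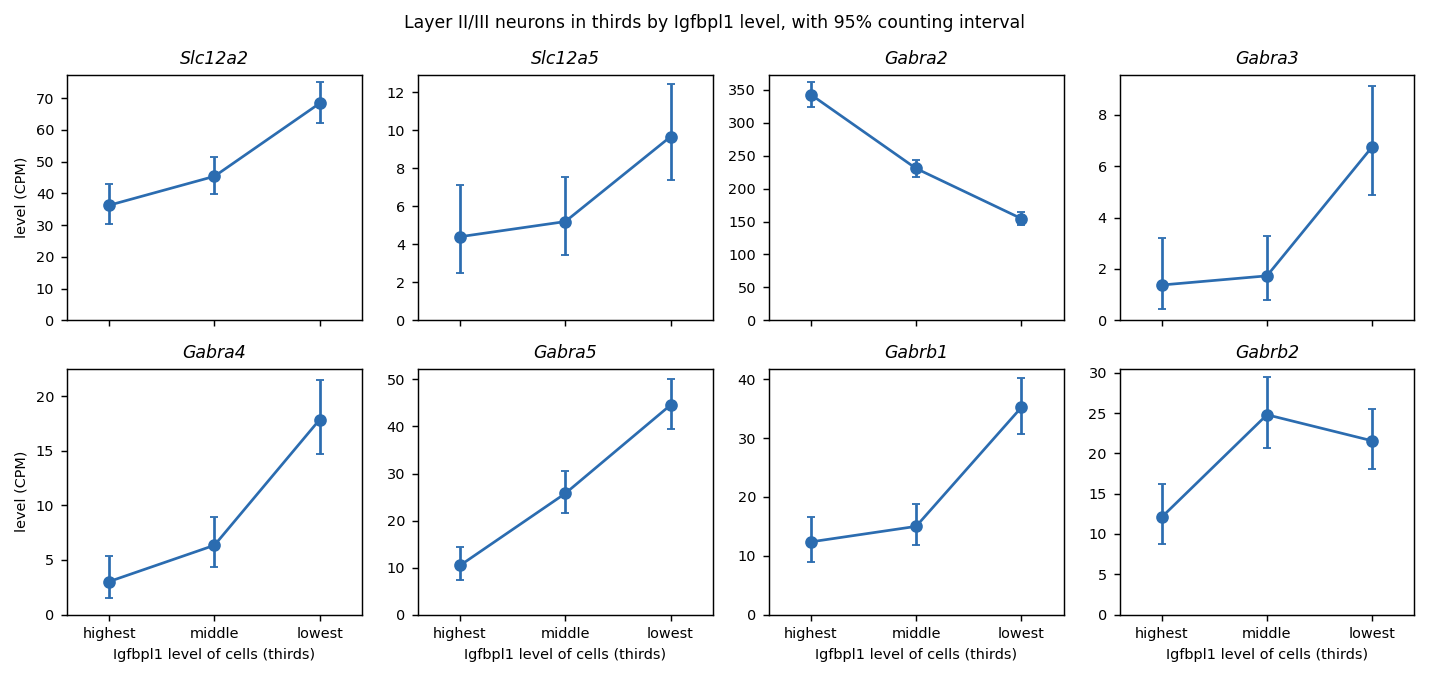
Level of each gene in CPM (y axis, from 0) in layer II/III neurons in 3 equal parts by Igfbpl1 level, from highest (left) to lowest (right). Error bars are exact 95% counting intervals. Gabra2 descends from 343 to 154 CPM while Slc12a2 goes from 36.2 to 68.4 CPM.

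The genes whose profiles over the 12 classes of at least 50 cells were most like those of the 8 were ranked by Pearson r of log2(CPM + 1), as a description. For Slc12a5 they were Ap2a2 (0.949), Ndufa8 (0.935) and Ap2s1 (0.930), and for Slc12a2 they were Cd151 (0.903), Pelo (0.881) and Pls3 (0.881). Gabra2 had Mn1 (0.937), Gm16152 (0.937) and Cd24a (0.931), Gabra3 had Mtx2 (0.957) and Tmem179 (0.956), and Gabra5 had Ap2m1 (0.978), Ociad2 (0.969) and Gng3 (0.966). Gabrb1 had Psd3 (0.877), Abhd14a (0.866) and Arhgef26 (0.845), and Gabrb2 had Sema6b (0.960), Sult4a1 (0.958) and Gtpbp6 (0.956). Gabra4, whose best match had the lowest r, had Atg7 (0.794), Fam126a (0.763) and Pdia6 (0.751). Among the 8 genes themselves the closest pair was Gabra5 and Gabrb2 (0.866), and Slc12a2 with Gabra3 was the most opposed (-0.791).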

How the data were processed

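Cells of the WT cortex were dissociated with papain and captured with the 10x Chromium 3′ kit, as the labels and methods describe. The authors deposited raw UMI counts per gene and cell, not normalized. The submitters' notes name STAR, Cell Ranger, Seurat and mm9. Which annotation was counted and how cells were called is not given in the sources used here. Summed counts in the table equalled the totals of the cell table in all 11062 cells (median 7197 UMIs per cell, lowest 500).

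Gating, sums and intervals were computed in Python 3.11.15 with numpy 2.4.6 and scipy 1.17.1. Layer and interneuron classes needed a scaled list score at least 1.5 times the second. Newborn neurons could also pass the excitatory and radial glia gates, Cajal-Retzius cells the excitatory gate, and non-neural cells the radial glia gate. Crym was left out of the layer lists. The 3 genes named per list comparison had the largest fold among those with at least 100 UMIs over both groups, and profiles were compared among genes with at least 500 UMIs. Some genes that this rule picked are not reported here. The pseudocount in the logarithm was 1. The interval and fold code was tested on simulated data. The 8 genes, the gates and the gene lists were chosen with earlier results of these data known. The contrasts between single classes, the motifs and the split into 3 parts were chosen after values had been seen.

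As alternatives, gates of 2 and 5 UMIs, minimum depths of 1000 and 4000 UMIs, no mitochondrial filter, equal weight per cell, thinning to 2000 UMIs, mitochondrial genes in the denominator and a layer score ratio of 3 were tried. The planned doublet call by a Scrublet-type score marked 0 of 11062 cells and so did not work. Leaving out the 560 cells of highest score was added after the data were seen, as were counting the layer-unresolved cells as layered and dropping newborn cells in the radial glia gate. Promoter sequences are from RefSeq tables of GRCm38.p6, another build than the mm9 named in the notes, so they were joined to the counts by symbol alone.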

Additional observations from a re-analysis of the deposited data

How the results depend on the processing

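Over the alternatives, 65 of 70 values of the Slc12a2 share stayed inside the main counting interval, 39 of 43 counts of genes past 2-fold stayed within 1.5 times the main count, and 306 of 344 ratios stayed inside their interval. No ratio clear of 1 turned its direction. The Slc12a2 share of newborn neurons was 95.8% with cells weighted equally and 95.8% without high doublet scores. That of layered excitatory neurons was 83.6% at 2000 UMIs per cell and 82.9% with layer-unresolved cells counted in, and that of layer II/III neurons was 93.6% at 2000 UMIs. The share in Lhx6-type interneurons ran from 13.1% to 21.2%. Of the 8 genes, the number past 2-fold in interneurons went from 6 to 3 at 2000 UMIs per cell, and in progenitors against newborn neurons from 7 to 4 with cells weighted equally, to 4 without high doublet scores and to 3 at 2000 UMIs per cell. The cause was not tested, and some values at 2000 UMIs per cell rest on few cells with a UMI, from a single random draw. No paired analysis was possible because the data hold 1 library. The progenitor values of Slc12a5, Gabra3 and Gabrb2 are limited by their counts, as they rest on 4, 3 and 5 UMIs.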
